A study of Mus musculus with 20 samples.

Results

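The genes described here are 10 genes of calcium handling at the sarcoplasmic reticulum, the calcium store of the muscle fibre. They were chosen by name: Cacna1s, Ryr1, Jph1, Jph2, Casq1, Casq2, Atp2a1, Atp2a2, Sln and Pvalb. All 10 were found among the 53311 rows of the count table, and all 10 of 10 passed the filter on low counts that left 13560 genes for testing. RNA was sequenced from mouse gastrocnemius, a calf muscle, with 5 libraries in each of 4 groups and 20 in all. Every animal, controls included, carried the genotype written as Cre+:iMSBmal1 fl/fl, in which Bmal1 (gene symbol Arntl), a core transcription factor of the circadian clock, is flanked by sites for Cre recombinase. The vehicle groups had vehicle only and the knockout-labelled groups are named iMSBmal1KO. Of each, 5 muscles came from rest and 5 from 1 h after a 30 min treadmill run, all at zeitgeber time 13. The labels name neither the promoter that drives Cre nor the agent that induces it, and the descriptions of the 5 exercised knockout-labelled samples say trained where their titles say acute. Nothing in the labels beyond the sample numbers says that libraries came from separate animals, so the p-values measure the spread between these samples.

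In skeletal muscle, the voltage sensor in the membrane tubules opens the release channel of the sarcoplasmic reticulum, calcium floods out and the fibre contracts. Calsequestrin holds calcium inside the store, junctophilins tie the store to the tubules, and the SERCA pumps return calcium so that the fibre relaxes. Fast and slow fibres use different forms of these proteins: fast fibres carry the pump encoded by Atp2a1 and the soluble calcium buffer parvalbumin, whereas slow fibres carry the pump encoded by Atp2a2, and calsequestrin 2 is known from heart and slow muscle.

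The libraries held 8045154 to 11269812 counts, with a median of 9024900, and the 10 genes together took 3.591% to 5.3% of them. Arntl was not lower in the knockout-labelled libraries: it stood at 12.3 ± 2.39 CPM (counts per 1000000 of the scaled library, SD, n = 5) in vehicle at rest and 14.5 ± 1.94 in knockout-labelled muscle at rest, and at 14.3 ± 5.71 and 16.4 ± 4.15 after exercise. The counts cover the whole gene, and the labels do not say which part of it is deleted, so each direction by genotype below rests on the labels. Fast fibre markers made up 89670 to 174500 CPM of each library. The marker of slow fibres, the myosin heavy chain Myh7, ranged from 0 counts in vehicle after exercise replicate 2 (at most 0.341 CPM at a floor of 3 counts) to 1236 CPM in knockout-labelled muscle at rest replicate 2. Much of that range lay within groups. Myh7 did not pass a test between the pairs of groups compared (exact two-sided permutation tests, n = 5 against 5, p = 0.492 for genotype at rest, 0.889 for genotype after exercise, 0.421 for exercise in vehicle and 0.0952 for exercise in knockout-labelled muscle). Its mean log2 CPM differed by 1.17, -0.38, -2.26 and -3.81 in the same order. With 5 against 5, these tests do not show that slow-fibre content was even across the groups. In bulk tissue, fewer cells of a type and less RNA per cell cannot be told apart.

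The upstream sequences of the calsequestrin pair are shown because Casq1 and Casq2 moved in opposite directions with Myh7. RefSeq promoters (GRCm38.p6) were matched for 7 of the 10 genes. The 250 bases before the start site of Casq2 lie at chr3:102086165-102086414 on the plus strand and those of Casq1 at chr1:172219896-172220145 on the minus strand. Both are written 5′ to 3′ with matches to the E-box CANNTG and to the MEF2 consensus in capitals.
Casq2: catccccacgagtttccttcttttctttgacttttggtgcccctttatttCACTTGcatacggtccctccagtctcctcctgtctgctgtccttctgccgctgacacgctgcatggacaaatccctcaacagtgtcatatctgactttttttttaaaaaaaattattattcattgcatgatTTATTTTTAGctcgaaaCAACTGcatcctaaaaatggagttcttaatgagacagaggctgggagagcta
Casq1: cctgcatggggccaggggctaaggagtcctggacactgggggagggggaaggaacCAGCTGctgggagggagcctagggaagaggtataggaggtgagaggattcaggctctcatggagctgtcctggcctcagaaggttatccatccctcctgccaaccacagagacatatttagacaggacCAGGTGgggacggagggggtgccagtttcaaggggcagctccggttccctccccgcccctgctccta
In each sequence the 6-base capitals are E-boxes, and the 10-base run in Casq2 is a match to the MEF2 consensus, the motif of a family of muscle transcription factors. E-boxes of the form CANNTG were found, on both strands, in 6 of the 7 genes and in 66% of all 27025 promoters of 250 bases. A member was counted if any of its listed promoters matched, and the share over all promoters used the first listed per gene. The E-box of Pvalb was in its promoter 2, with none in promoter 1. A MEF2 consensus was found in Casq2 and Pvalb, 2 of the 7, and in 3.01% of all promoters. The clock E-box CACGTG, which is also a CANNTG, was in none of the 7 and in 6.05% of all promoters, and the D-box TTATGTAA was in none of the 7 and in 0.862%. These are matches of letters in a window, not measured binding.

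Per kilobase of exon and averaged over the 20 libraries, Atp2a1 (7814 ± 1137 CPM per kb, SD, n = 20) and Pvalb (7149 ± 1618) were the most abundant and did not differ beyond their spread. Casq1 followed at 1238 ± 351 CPM per kb. Ryr1 (231 ± 26.5), Jph2 (191 ± 32.7) and Cacna1s (190 ± 31.9) lay together within their spread. Jph1 (78.5 ± 12.2) and Atp2a2 (54.8 ± 41.8) came next and overlapped, then Casq2 at 10.7 ± 9.32 and Sln at 2.04 ± 1.30 CPM per kb. In level per length, Atp2a1 thus stood above Atp2a2, and Casq1 above Casq2.

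**Figure D1:**
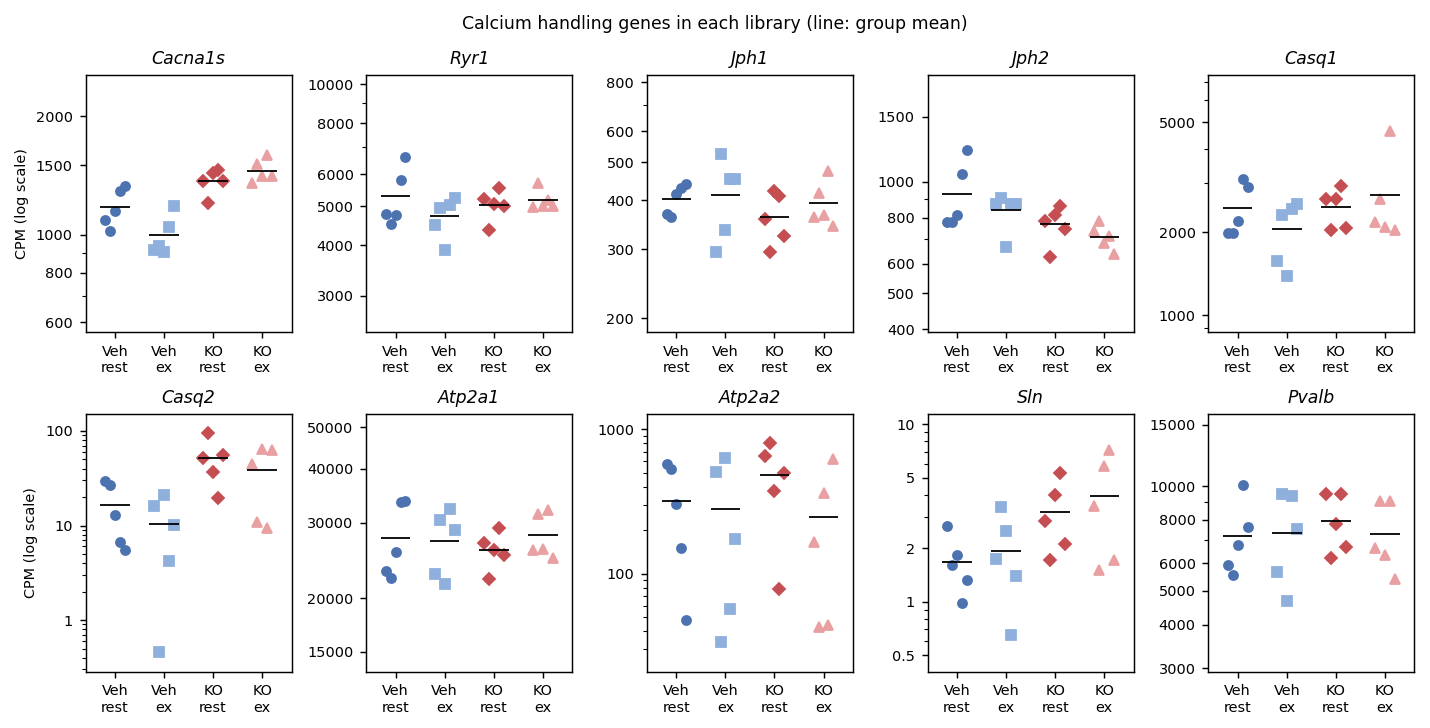
CPM of each gene (log scale) in every library, by group (Veh, vehicle; KO, knockout-labelled; ex, after exercise), with a line at the group mean. Cacna1s after exercise is the panel in which vehicle (904 to 1179 CPM) and knockout-labelled libraries (1352 to 1593 CPM) do not overlap; Casq2 and Atp2a2 spread widely inside each group.

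Cacna1s, the voltage sensor and pore of the skeletal L-type calcium channel, was the member called by genotype when no covariate was used. In vehicle after exercise its 5 libraries held 912, 935, 904, 1048 and 1179 CPM. In knockout-labelled muscle after exercise they held 1352, 1514, 1406, 1593 and 1406 CPM. Each of the 5 knockout-labelled libraries was above each of the 5 vehicle libraries. The log2 fold change was 0.55 (SE 0.0995, edgeR quasi-likelihood test with Benjamini-Hochberg adjustment over all genes, adjusted p = 0.00108). It was called in 20 of 20 fits that left out a library, with adjusted p up to 0.00566, and in 12 of 12 alternative settings. In this contrast 1 of the 10 genes was called against 6.42% of all genes tested (2.67% higher, 3.75% lower), and ranges that do not overlap with knockout-labelled higher were found for 2.7% of all genes. Of the 870 genes called, 362 were higher, and 449 of 845 when libraries were scaled by total count alone.

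At rest the 5 vehicle libraries held 1088, 1021, 1151, 1290 and 1329 CPM of Cacna1s, and the 5 knockout-labelled libraries 1366, 1200, 1435, 1458 and 1365 CPM. Of the 5 knockout-labelled libraries, 4 lay above every vehicle library, and the log2 fold change of 0.22 (SE 0.0993) was not called (edgeR, adjusted p = 0.311). Between rest and exercise, Cacna1s differed by -0.24 in vehicle (adjusted p = 0.422) and 0.09 in knockout-labelled muscle (adjusted p = 1.00), and the difference between those effects was 0.33 (SE 0.14, edgeR, adjusted p = 0.803). A difference of the exercise effect by genotype was therefore not called. An antisense gene, Gm37759, shares 1309 exonic bases with Cacna1s (19.98% of its exons), and strand was not given in the sources used here. Gm37759 had a log2 fold change of 0.27 by genotype after exercise (edgeR, adjusted p = 0.160).

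Beside these genotype contrasts, the fat cell list moved with the labels: its 6 genes summed to 999 to 1864 CPM in the vehicle libraries and to 188 to 364 CPM in the knockout-labelled libraries. That sum was nearly all Car3, a carbonic anhydrase also made by slow muscle fibres; the other 5 genes of the list summed to 0.115 to 35.6 CPM over the 20 libraries. Cardiac muscle markers summed to 1.59 to 7.35 CPM with Myl7 at 0 in every group. Blood markers summed to 48.2 to 366 CPM, and 1 of 5 (Hba-a2) was lower in knockout-labelled muscle after exercise. The part of these cells in the member values was not tested.

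No other member was called in the genotype contrasts without a covariate. At rest 0 of 10 were called, against 3.86% of all genes tested, and 3 of 10 had an unadjusted p under 0.05, against 14.6% of all genes; DESeq2 and limma-voom also called 0 members. The median log2 fold change of the 10 genes was 0.0786 at rest and 0.0889 after exercise, and 0.0087 and 0.0145 over all genes tested. The release channel Ryr1 had log2 fold changes of -0.07 at rest and 0.13 after exercise (edgeR, adjusted p = 0.842 and 0.576). Of the junctophilins, Jph1 had -0.16 and -0.07 (adjusted p = 0.680 and 0.840), and Jph2 had -0.27 and -0.24 (adjusted p = 0.3025 and 0.309). Atp2a1 had -0.10 and 0.04 (adjusted p = 0.837 and 0.911), Pvalb 0.14 and -0.01 (adjusted p = 0.829 and 0.991). Sln, the sarcolipin peptide that inhibits the pumps, was near the bottom of the range, with 6 to 53 counts a library, and had 0.92 and 1.00 (adjusted p = 0.358 and 0.208). Casq1 had 0.02 and 0.41 (adjusted p = 0.988 and 0.330), and the second value was 0.13 without knockout-labelled muscle after exercise replicate 4, which held 4643 CPM against 2029 to 2633 CPM in the other 4.

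**Figure D2:**
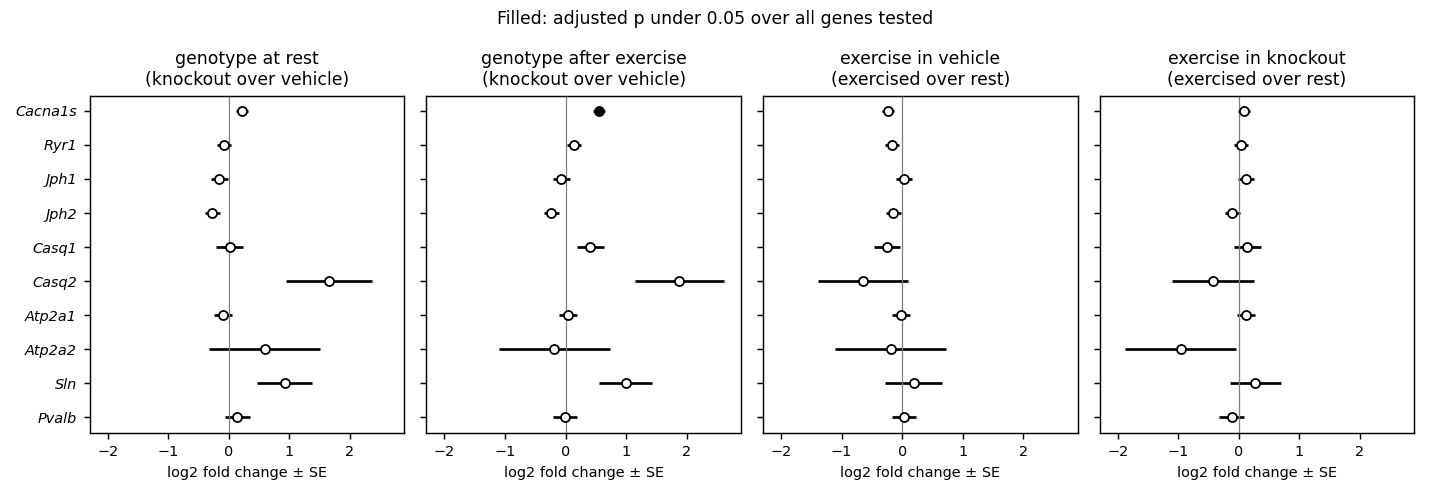
log2 fold change ± SE of each gene for the 4 pairwise contrasts, edgeR fit over 20 libraries, filled where the adjusted p is under 0.05. Cacna1s by genotype after exercise (0.55) is the filled point; Casq2 and Atp2a2 have the widest errors.

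The exercise contrasts called no member. In vehicle, 0 of 10 were called by edgeR against 0.804% of all genes, and Cacna1s alone had an unadjusted p under 0.05, against 8.92% of all genes. In knockout-labelled muscle edgeR called 0 of 10 (0 at an unadjusted p under 0.05) against 0% of all genes, 639 of which (4.71%) had an unadjusted p under 0.05. The interaction called 0 of 10 (1 at an unadjusted p under 0.05) against 0% of all genes, 791 of them (5.83%) at an unadjusted p under 0.05 and 3 called by DESeq2. DESeq2 and limma-voom called 0 members in these 3 contrasts. The exercise and genotype contrasts share libraries, and their values stand side by side without a comparison of their patterns.

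Most of the 10 genes varied with Myh7, the measure of slow fibres in a library. Among libraries of the same group, 8 of the 10 genes were called for a slope on Myh7 (2 higher, 6 lower), against 21.1% of all genes (11.8% higher, 9.35% lower; with scaling by total count alone, 2262 higher and 601 lower of 2863). The slope is the log2 change per doubling of Myh7 CPM, with the group means as terms. It is a single rate fitted over the whole range, and whether the rate is constant was not tested. Atp2a2 spanned 33.5 to 57.1 CPM in the libraries with 0 to 82 counts of Myh7. It spanned 151 to 803 CPM in those with 142 CPM of Myh7 or more. The median slope was -0.039 for the 10 genes and -0.0009 for all genes tested. Of the slow fibre markers other than Myh7, 7 of 7 were called higher with Myh7, and of the 10 fast fibre markers 8 were called lower and 2 (Myh1 and Myh2) higher. Of the markers of other cells, 3 of 5 endothelial, 1 of 5 fibroblast (Lum) and 1 of 2 tested cardiac muscle genes (Myh6) were called higher with Myh7, and their part in the slopes was not tested.

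Atp2a2, the slow-fibre and cardiac SERCA2 pump, had the steepest slope, 0.42 (SE 0.037, edgeR, adjusted p = 4.9e-06). Its 5 vehicle libraries at rest held 573, 529, 303, 151 and 48.0 CPM, and the 5 after exercise 507, 33.5, 637, 57.1 and 174 CPM. The knockout-labelled libraries held 660, 803, 376, 78.6 and 498 CPM at rest and 165, 42.8, 362, 44.4 and 622 CPM after exercise. The groups overlapped throughout, and the highest of the 20 was 24.0 times the lowest. The library with no Myh7 count held the least Atp2a2 (33.5 CPM) and the library with the most Myh7 (1236 CPM) held the most (803 CPM). By genotype the log2 fold changes were 0.59 at rest and -0.19 after exercise, with SEs of 0.92 (edgeR, adjusted p = 0.842 and 0.942).

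The fast-fibre genes Pvalb and Atp2a1 ran the other way, as did Casq1, Jph1, Jph2 and Ryr1. Pvalb fell by 0.074 per doubling of Myh7 (SE 0.015, edgeR, adjusted p = 9.0e-04) and Atp2a1, the fast SERCA1 pump, by 0.047 (SE 0.011, adjusted p = 0.00401). Casq1 fell by 0.074 (SE 0.018, edgeR, adjusted p = 0.00617). Jph1 fell by 0.050 (SE 0.0099, adjusted p = 6.8e-04) and Jph2 by 0.035 (SE 0.011, adjusted p = 0.0209). Ryr1 fell by 0.028 (SE 0.010, adjusted p = 0.0481) and kept its call in 5 of 20 fits that left out a library. Jph2 kept it in 18 of 20, and the largest adjusted p of both came without vehicle at rest replicate 5 (0.158 for Ryr1, 0.0874 for Jph2). Of 13 alternative settings, Ryr1 was called in 8 and Jph2 in 11. With scaling by total count alone both lost the call (edgeR, adjusted p = 0.250 and 0.116), as they did without group terms (adjusted p = 0.176 and 0.232). Cacna1s (-0.016, adjusted p = 0.248) and Sln (-0.043, adjusted p = 0.565) were not called; with Myh7 on a linear scale Cacna1s was called lower (edgeR, adjusted p = 0.0366). The range of the genes called lower was narrow beside that of Atp2a2: Atp2a1 spanned 21574 to 33599 CPM, Pvalb 4690 to 10082 CPM and Jph1 294 to 523 CPM over the 20 libraries. Casq1 had the widest range of them, 1389 to 4643 CPM, with the top value in knockout-labelled muscle after exercise replicate 4.

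**Figure D3:**
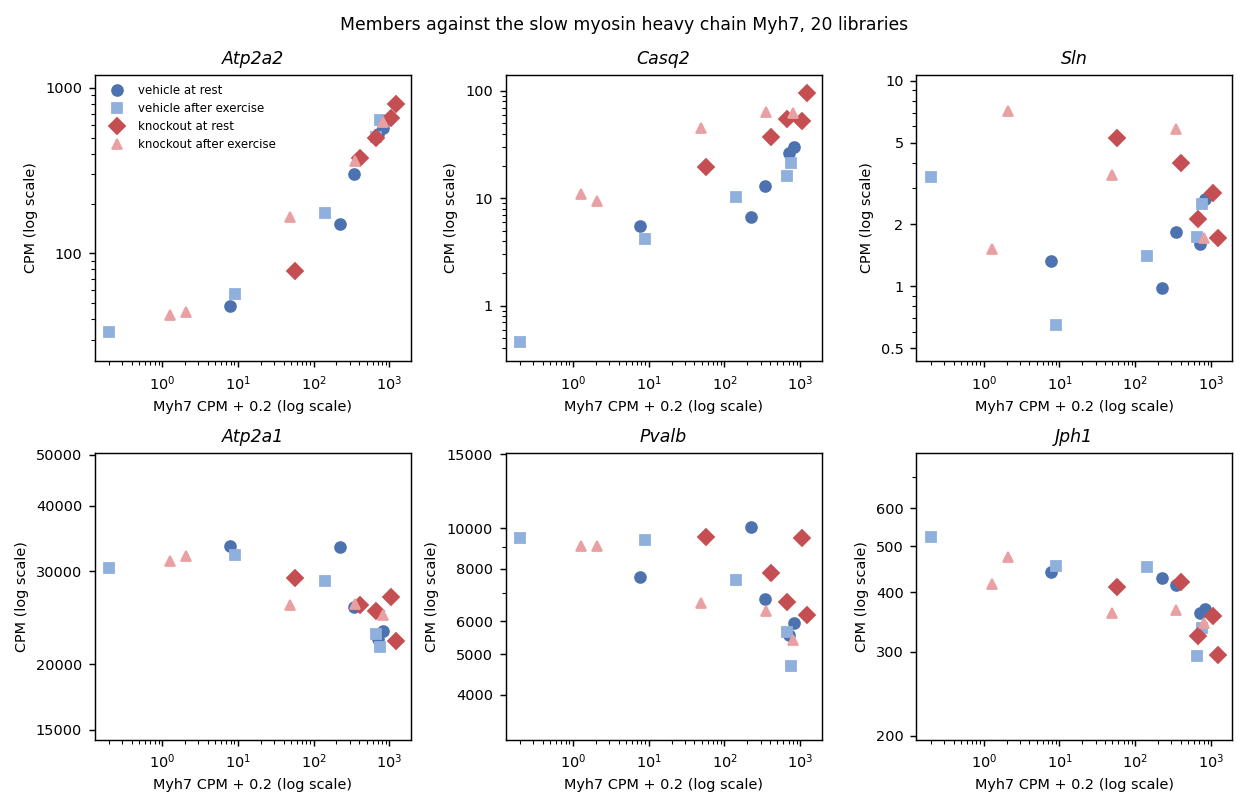
CPM of 6 genes against Myh7 CPM plus 0.2, both on log scales, 20 libraries with a symbol per group. Atp2a2 (33.5 to 803 CPM) and Casq2 climb with Myh7, Atp2a1, Pvalb and Jph1 decline over a narrower range, and the slope of Sln was not called. Groups named knockout carry that label.

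**Figure D4:**
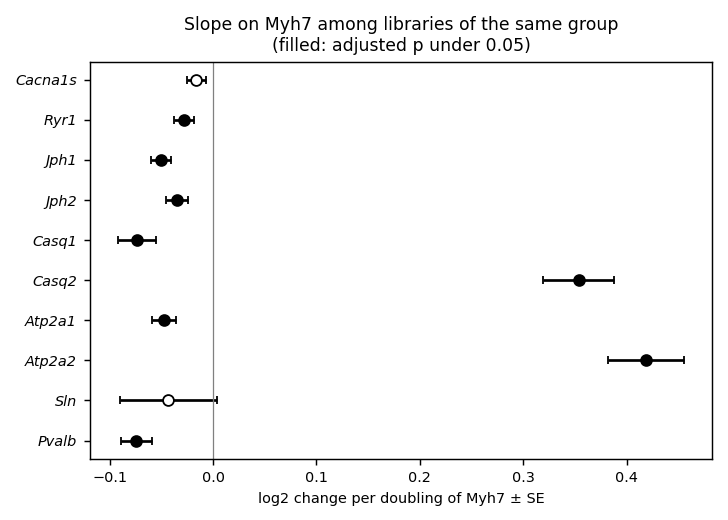
log2 change ± SE per doubling of Myh7 within groups, filled where the adjusted p is under 0.05. Atp2a2 (0.42) and Casq2 (0.35) are positive and filled, and 6 genes are negative and filled, from -0.028 to -0.074. Cacna1s (-0.016) and Sln (-0.043) are negative and open.

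As a correlation of deviations from the group means over the 20 libraries, Atp2a2 had r = 0.951 and rho = 0.958 with Myh7 and Casq2 r = 0.950 and rho = 0.956 (permutation p = 1e-05 each, the smallest that 100000 permutations can give, adjusted p = 5e-05 over 10 relations). Without the 2 libraries farthest from the median of Myh7, r was 0.970 and 0.914. The other 8 genes had r from -0.793 (Jph1) to -0.110 (Sln).

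Casq2, calsequestrin 2, rose with Myh7 as well, with a slope of 0.35 (SE 0.034, edgeR, adjusted p = 6.3e-06). In vehicle its libraries held 29.8, 26.7, 13, 6.77 and 5.55 CPM at rest and 16.2, 0.455, 21.1, 4.21 and 10.2 CPM after exercise. In knockout-labelled muscle they held 52.2, 94.8, 37.2, 19.6 and 55.4 CPM at rest and 45.0, 10.9, 63.8, 9.45 and 62.6 CPM after exercise. At rest 4 of the 5 knockout-labelled libraries, and after exercise 3 of 5, lay above every vehicle library of that state. Without a covariate the log2 fold changes by genotype were 1.65 (SE 0.71) and 1.88 (SE 0.73) and were not called (edgeR, adjusted p = 0.280 and 0.159).

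With Myh7 as a covariate the error of Casq2 shrank and both differences were called. At rest the knockout-labelled libraries were higher by 1.33 on the log2 scale (SE 0.26, edgeR, adjusted p = 0.00341). After the run they were higher by 2.24 (SE 0.28, edgeR, adjusted p = 6.1e-05). That fit called 5.77% of all genes at rest and 9.83% after exercise, and of the 10 genes it called Casq2 at rest and Casq2 and Cacna1s after exercise. Casq2 was called in 20 of 20 covariate fits that left out a library, at 1.16 to 1.47 at rest and 2.08 to 2.45 after exercise. The change of the exercise effect with genotype was 0.90 in that fit and was not called (edgeR, adjusted p = 0.631).

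A pair of libraries with like Myh7, chosen after the values were seen, shows the levels. At 345 CPM of Myh7, vehicle at rest replicate 3 held 13 CPM of Casq2, and at 349 CPM, knockout-labelled muscle after exercise replicate 3 held 63.8 CPM. This pair differs in exercise as well as in label, and its second library held the most Casq2 of its group. In the same state as the first, knockout-labelled muscle at rest replicate 3 held 37.2 CPM of Casq2 at 407 CPM of Myh7. Relative to Atp2a2 in the same library, Casq2 made up 4.109% to 10.37% of the counts of both in vehicle at rest and 7.335% to 19.98% in knockout-labelled muscle at rest. After exercise the shares were 1.342% to 6.866% and 9.143% to 21.44%, with no overlap. How often other pairs of genes separate in this way was not tested. The lowest of these shares, in vehicle after exercise replicate 2 with 0 counts of Myh7, rested on 4 Casq2 counts. Shares also differed with Myh7 inside a group. In knockout-labelled muscle after exercise the share was 21.44% at 48.4 CPM of Myh7 and 9.143% at 811 CPM. The log2 ratio differed by 1.09 at rest (exact permutation test, n = 5 against 5, p = 0.0317, adjusted p = 0.0635 over 4 contrasts) and by 2.37 after exercise (exact p = 0.00794, the smallest this design allows, adjusted p = 0.0317). This ratio and the leave-one-out covariate fits were chosen after the data had been seen. The adjustment of this ratio covers its own 4 contrasts and leaves out the planned tests of paralogue ratios given below. Its adjusted p after exercise is therefore not counted as a call. No gene shares exons with Casq2 in GENCODE M21.

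**Figure D5:**
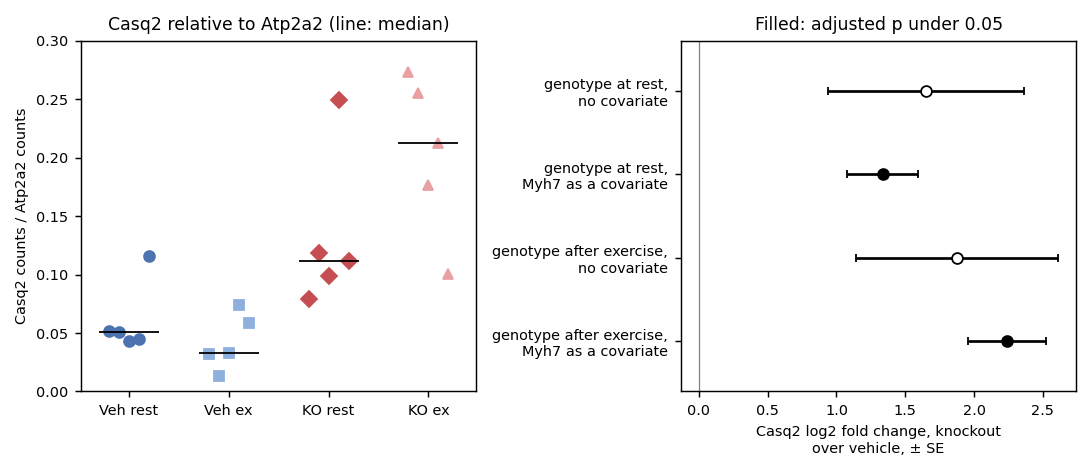
Left, Casq2 counts over Atp2a2 counts in each library by group (Veh, vehicle; KO, knockout-labelled; ex, after exercise), with a line at the median. Right, Casq2 log2 fold change ± SE, knockout-labelled over vehicle, with and without Myh7 as a covariate, filled where the adjusted p is under 0.05; the covariate moves the estimates from 1.65 to 1.33 and from 1.88 to 2.24.

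The ratios of paralogues, which do not depend on how libraries are scaled, gave no call in 12 tests. Atp2a2 made up 0.11% to 3.5% of the counts of both SERCA genes. Casq2 made up 0.0197% to 4.45% of both calsequestrins, the lowest from the library with 4 Casq2 counts. Its log2 ratio to Casq1 differed by 1.77 by genotype at rest (exact permutation test, p = 0.0556, adjusted p = 0.333). Jph2 made up 60.03% to 74.8% of both junctophilins, and its ratio to Jph1 differed by -0.23 with exercise in knockout-labelled muscle (exact permutation test, p = 0.0159, adjusted p = 0.190).

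Other genes of the pathway were taken from lists of 63 names, of which 61 were in the table and 59 were tested. By genotype at rest, 2 were called higher and 2 lower, against 1.8% and 2.06% of all genes. Mrln, which encodes the pump inhibitor myoregulin, rose from 28.8 ± 5.04 to 76.6 ± 13.6 CPM (SD, n = 5), a log2 fold change of 1.41 (edgeR, adjusted p = 5.8e-05). Stim1, the calcium sensor of the store, rose by 0.44 (adjusted p = 8.9e-04). Itpr1, an inositol trisphosphate receptor, averaged 53.6 ± 11.6 CPM with vehicle against 22.2 ± 3.21 CPM with the knockout label, a log2 change of -1.27 (edgeR, adjusted p = 4.5e-05). Nfatc2, a calcineurin-dependent transcription factor, fell by 1.02 (adjusted p = 4.7e-05).

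After exercise 7 of the 59 were called higher and 2 lower in knockout-labelled muscle, against 2.67% and 3.75% of all genes. Slc8a1, the sodium-calcium exchanger, rose from 11.8 ± 3.02 to 36.3 ± 17.99 CPM (SD, n = 5; log2 fold change 1.62, edgeR, adjusted p = 0.00117). Mrln rose by 0.91 (adjusted p = 0.00358), Stim1 by 0.47 (adjusted p = 3.4e-04) and Mcu, the pore of the mitochondrial calcium uniporter, by 0.44 (adjusted p = 0.00664). Itpr1 fell by 1.34 (adjusted p = 2.0e-05) and Fkbp1a, which encodes a stabilising partner of the release channel, by 0.47 (adjusted p = 0.00307). The exercise contrasts and the interaction called 0 of the 59 (edgeR), with 4, 4 and 2 at an unadjusted p under 0.05, against 8.92%, 4.71% and 5.83% of all genes.

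With Myh7, 6 of the 59 rose and 29 fell, against 11.8% and 9.35% of all genes. The voltage sensor partners fell in 7 of 9, among them Stac3, an adaptor of the channel (-0.057, edgeR, adjusted p = 2.3e-05). The calmodulin genes Calm2 (-0.067, adjusted p = 1.7e-05) and Calm3 (-0.075, adjusted p = 1.3e-04) fell, as did the exchanger Slc8a3 (-0.086, adjusted p = 4.7e-05), the kinase gene Camk2a (-0.079, adjusted p = 5.7e-05) and Ank1, an anchor of the sarcoplasmic reticulum (-0.067, adjusted p = 1.2e-04). The pump regulator list had 2 of 7 higher and 3 of 7 lower.

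The gene most like each member was sought among 7911 genes by Pearson r of log2 CPM over the 20 libraries, which share the group differences and the range in Myh7. Atp2a2 was most like Tpm3 (r = 0.991), a slow fibre tropomyosin, and Tnni1 (0.978), the slow troponin I, with the opposite-strand Gm43361 between them (0.987). Pvalb was most like Ckm (0.940), the muscle creatine kinase. Casq2 was most like Tmem63b (0.937), Ryr1 like Scn4a (0.923), the muscle sodium channel, and Cacna1s like Tln2 (0.947). Jph1 was most like Tbx15 (0.907), Jph2 like Kctd15 (0.942) and Sln like Trim33 (0.767). For Casq1 and Atp2a1 the nearest genes, Gm17224 (0.984) and Rabep2 (0.963), share 156 and 763 exonic bases with them on the opposite strand, so their reads may not be separable.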

How the data were processed

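RNA sequencing of 20 mouse gastrocnemius libraries was analysed from the read counts per gene that the authors deposited. The submitters' processing notes name STAR 2.7.8a, Partek and DESeq2, and the builds mm10 and GRCm39 without a role; the counting rule, annotation and strand are not given in the sources used here. Samples were grouped by their titles. The table has 53311 rows, 106 of them with a repeated symbol. edgeR 4.0.16 (R 4.3.3) was run with TMM scaling, filterByExpr at a minimum count of 10 (13560 genes, 99.83% of counts), 1 mean per group and robust quasi-likelihood tests, with Benjamini-Hochberg adjustment over all genes and a threshold of 0.05. CPM used the TMM-scaled library sizes, and log2 CPM for Myh7 and the likeness search a prior count of 2. Slopes on Myh7 added its log2 CPM, centred within groups. Paralogue ratios (0.5 added to each count) and Myh7 were compared by exact permutation over 252 relabellings of 5 against 5. Alternatives used DESeq2 1.42.0, limma 3.58.1, other scalings and filters, covariates, a replicate block and leaving out each library. Gene lengths and overlaps came from GENCODE M21 and promoters from RefSeq GRCm38.p6. The fitting code was tested on simulated data. Of genes given a log2 change of 1, it called 80% to 90% in the pairwise contrasts and 61% in the interaction. For the slope it called 69% of genes given that change over the whole range of Myh7. False calls were 3.35% to 7.87% of calls, highest for the slope. Changed genes were drawn from those with a mean count of at least 20, with noise independent between genes. The simulated libraries thus shared no variation in fibre content. These rates are averages over such genes and do not give the chance of a call for a single member. Depth, 8045154 to 11269812 counts, limits Sln (6 to 53 counts) most among the members. The lowest single count was 4, of Casq2 in vehicle after exercise replicate 2. The floor of 3 counts covers counting error only. The members and the gene lists were chosen with earlier results of these data known. All members were named; of other listed genes, at most the 6 with the smallest adjusted p per contrast; for likeness, up to the 3 genes with the highest r. The marker lists that gave no call by genotype (slow and fast fibre, cardiac, nerve, endothelial, smooth muscle, fibroblast, macrophage and satellite cell) had medians between -0.3879 and 0.6983. The closest pair of libraries within each group had a chi-square of 3.88 to 11.4 per degree of freedom, above sampling noise.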

Additional observations from a re-analysis of the deposited data

Results flagged for a closer look

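Among 44 checks of a gene in a group of 5, 2 set a library apart from the others, and chance sets apart about 1 in 20. Jph2 in vehicle after exercise was lowest in replicate 3, at 667 CPM against 869 CPM in the next library, a gap of 0.864 of the group's range on the log2 CPM scale. Myh7 in vehicle at rest was lowest in replicate 5, at 7.55 CPM against 224 CPM in the next library, a gap of 0.719 of the range on the same log2 scale. Without the first of these libraries the slope of Jph2 on Myh7 lost its call (edgeR, adjusted p = 0.0623), and without the second it did too (adjusted p = 0.0874).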

How the results depend on the processing

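The count of members called changed in the genotype contrasts with a fibre covariate: 1 at rest in place of 0 and 2 after exercise in place of 1, both with Myh7 and with the mean of the slow fibre markers. No called member changed direction. Leaving out each library in turn gave 0 members called at rest, 1 after exercise, 0 in both exercise contrasts and in the interaction, and 6 to 8 for the slope on Myh7. Other settings gave the slope 6 members (scaling by total count alone, no group terms), 7 (minimum count of 50, without the 2 libraries farthest in Myh7) or 9 (Myh7 on a linear scale) in place of 8. With Myh7 as a covariate it gave 1 at rest, 2 to 3 after exercise (3 without vehicle after exercise replicate 5), 0 to 1 for exercise in vehicle (Cacna1s, 1 without that same library), and 0 for exercise in knockout-labelled muscle and for the interaction. Samples share replicate numbers, which were not taken to pair them because no contrast had every same-number correlation over 0.1. They ran from -0.448 to 0.437, and for genotype after exercise from 0.0185 to 0.437, with 4 of 5 over 0.1. With the replicate number as a block, members called stayed at 0, 1, 0, 0 and 0 in the 5 contrasts and went from 8 to 7 for the slope (Ryr1, edgeR adjusted p = 0.0609), while genes called for the slope went from 2862 to 1641. Over all genes, counts moved by more than 1.5 times in these cases. Genotype at rest gave 523 and 856 with the marker covariate. Genotype after exercise gave 870, 1333 with Myh7, 1415 with the markers and 567 with only its groups fitted. Exercise in vehicle gave 109, 195 with DESeq2, 225 and 247 with the covariates, 61 with only its groups, and 52 to 135 without each library. Exercise in knockout-labelled muscle gave 0, 4 and 6 with the covariates. The interaction gave 0, 3 with DESeq2 and 0 to 1 without each library, and the slope 1830 with no group terms. The cause of these moves was not tested.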
